A study of Homo sapiens with 12 samples.

Results

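The Notch genes followed here were the receptors NOTCH1, NOTCH2, NOTCH3 and NOTCH4, the ligands JAG1, JAG2 and DLL1, and the HES/HEY genes HES1, HEY1 and HEYL. They were picked by gene name, and all 10 were found among the 19973 genes of the expression table. The choice was made with results of these same comparisons known, chiefly the size of the NOTCH3 difference in H460 cells. Values, folds and calls of the 10 genes are therefore given as a description with no p-value, and tests are given for 73 other genes of the pathway.

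RNA was sequenced from H460 and A549, established cell lines of human non-small cell lung cancer (NSCLC), H460 being a large cell carcinoma line and A549 an adenocarcinoma line. Cells of each line were either non-treated (control) or given ISP-I, a component of the macrolide antibiotic carrimycin, at 10 µM for 48 h. The 4 groups, H460 control, H460 ISP-I, A549 control and A549 ISP-I, held 3 libraries each, 12 in all. The labels give the genotype of both lines as WT, while the study describes both as carrying homozygous inactivating KEAP1 mutations, which controls and treated cells share. Whether controls received the DMSO that carried ISP-I is not stated for the sequenced cells. Nor is it stated whether the 3 libraries of a group came from separate cultures, so the p-values below measure the spread between these libraries, which may be technical.

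Notch receptors are single-pass membrane proteins that are activated by ligands of the Jagged and Delta families on a neighbouring cell. Ligand binding exposes the receptor to cleavage by an ADAM protease and then by gamma-secretase, and the released intracellular domain enters the nucleus, where it joins RBPJ and a Mastermind coactivator at target genes. The best known targets are the HES and HEY genes, which encode basic helix-loop-helix repressors. In the lung, Notch signalling directs airway cells toward secretory and away from ciliated and neuroendocrine fates.

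Depth was 14225849 to 17874422 reads on genes per library. Expression is given as FPKM, that is, reads divided by gene length and by library depth, and fold changes of the fit are on the log2(FPKM + 1) scale, which draws those of genes near or under 1 FPKM toward 0. The libraries of H460 ISP-I differed most among themselves, library 3 from library 2 above all. In A549 control, library 3 stood apart from libraries 1 and 2, which were close to each other. Over all tested genes the median log2 fold change was -0.15 in H460 and 0.02 in A549, and scaling by median-of-ratios factors moved these to 0.01 and 0.00. In H460 that scaling turned the balance of called genes from 1409 higher and 2047 lower to 1957 higher and 1511 lower, so the H460 values of genes named below are also given under it where it changes a call or whether a gene passed. Of 6 epithelial markers, KRT8, KRT18 and KRT19 averaged at least 45.6 FPKM in every group, while CDH1 was listed at 0 in all H460 control libraries and EPCAM averaged 0.0473 FPKM there. The summed level of 6 endothelial markers was 0.00634 to 0.0807 FPKM in H460 control, 0.221 to 0.327 in H460 ISP-I, 0.0895 to 0.161 in A549 control and 0.522 to 0.608 in A549 ISP-I, higher with ISP-I in both lines. These sums rest on few reads, at most 4 per marker and library in H460 control and 16 in H460 ISP-I. In A549 ISP-I, VWF alone averaged 0.303 ± 0.063 FPKM. The summed level of 6 mural and smooth muscle markers was 0.986 to 1.77 FPKM in H460 control, 3.47 to 3.99 in H460 ISP-I, 1.67 to 1.75 in A549 control and 4.0 to 4.71 in A549 ISP-I. The members did not all go the way of the sum. CNN1, PDGFRB, RGS5 and DES averaged higher with ISP-I in both lines and MYH11 lower in both. ACTA2 averaged lower in H460 and higher in A549. PDGFRB went from 0.543 ± 0.109 to 2.4 ± 0.15 FPKM in H460, and ACTA2 from 1.17 ± 0.0919 to 2.69 ± 0.38 FPKM in A549. The summed level of 6 leukocyte markers, of which CD14 held 5.92 ± 0.694 FPKM in H460 control, was 5.22 to 6.48 FPKM in H460 control and 0.113 to 1.77 FPKM in the other groups. The part of these cell type markers in the results below was not tested. In bulk RNA, fewer cells of a type and less RNA per cell cannot be told apart.

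The start regions of 8 of the 10 genes were in the RefSeq promoter table (GRCh38.p14), which holds 250 bases before to 50 bases after each start site. DLL1 and HEY1 were not in it. NOTCH3 is printed as the receptor with the lowest ISP-I to control ratio, and HES1 and HEYL as the genes whose windows held the RBPJ core. The 3 windows are chr19:15200946-15201245 on the minus strand, chr3:194135898-194136197 on the plus strand and chr1:39639594-39639893 on the minus strand. Capitals mark matches to the RBPJ core TGGGAA or to the N-box CACNAG, a HES binding motif, on either strand.
NOTCH3: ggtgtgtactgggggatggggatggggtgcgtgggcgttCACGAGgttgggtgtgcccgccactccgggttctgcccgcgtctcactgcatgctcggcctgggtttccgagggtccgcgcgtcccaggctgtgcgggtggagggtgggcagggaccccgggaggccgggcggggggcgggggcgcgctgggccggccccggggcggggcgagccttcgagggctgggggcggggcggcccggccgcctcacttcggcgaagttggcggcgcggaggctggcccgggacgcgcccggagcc
HES1: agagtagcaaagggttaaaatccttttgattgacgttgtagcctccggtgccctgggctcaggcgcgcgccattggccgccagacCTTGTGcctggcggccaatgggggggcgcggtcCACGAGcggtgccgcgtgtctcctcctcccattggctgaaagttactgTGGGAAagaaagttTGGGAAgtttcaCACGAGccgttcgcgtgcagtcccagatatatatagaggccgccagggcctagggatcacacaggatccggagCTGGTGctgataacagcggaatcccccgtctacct
HEYL: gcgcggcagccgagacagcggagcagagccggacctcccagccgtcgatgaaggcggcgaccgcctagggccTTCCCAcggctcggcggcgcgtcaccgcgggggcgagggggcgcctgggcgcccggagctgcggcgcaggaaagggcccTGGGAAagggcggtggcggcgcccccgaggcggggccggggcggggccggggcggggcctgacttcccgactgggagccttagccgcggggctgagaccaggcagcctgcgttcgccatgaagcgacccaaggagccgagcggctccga

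The HES1 window held TGGGAA at -84 and again at -70, counted from the start site, and 4 N-box matches. HEYL held the RBPJ core at -178 as its reverse complement TTCCCA and at -99 as TGGGAA, read along the printed sequence. NOTCH3 held a single N-box match, at -211, and no RBPJ core. The RBPJ core was in 2 of the 8 windows and in 24.0% of all 35116 promoters of the table, and the N-box was in 5 of the 8 and in 38.0% of all. The E-box CACGTG, which HEY proteins bind, was in 0 of the 8 and in 7.26% of all promoters. The N-box matches of NOTCH1, at -1 and 2, overlap each other on opposite strands. A match is a description of the letters in this window and is not a measured binding site.

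Among the receptors, NOTCH3 gave the strongest difference in both lines. NOTCH3 (ENSG00000074181, hg38 chromosome 19, 15159038 to 15200995, minus strand) is a receptor best known from smooth muscle and is also expressed in epithelial tumours. H460 control libraries held 42.9, 46.3 and 48.5 FPKM, and H460 ISP-I libraries held 0.476, 0.485 and 0.53 FPKM. The highest treated library was far under the lowest control library. The means were 45.9 ± 2.83 and 0.497 ± 0.0291 FPKM (SD, n = 3 each), a level 92.4-fold lower with ISP-I. Behind them stood 5812 to 6805 reads per control library and 74 to 80 reads per treated library.

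A549 cells showed the same direction from a lower start. Controls held 3.05, 3.2 and 3.12 FPKM of NOTCH3, and ISP-I libraries held 0.221, 0.176 and 0.185 FPKM. The groups did not overlap, and the mean was 16.1-fold lower with ISP-I, on 25 to 31 reads per treated library. The log2 fold change was -4.97 (SE 0.11) in H460 and -1.79 (SE 0.065) in A549, and the difference between the lines was -3.18 (SE 0.1). This gap is smaller between the plain ratios, since the pseudocount of 1 compresses the low A549 values more. On recovered reads, with library totals, the log2 fold changes were -6.52 in H460 and -3.99 in A549. Under the 7 alternative settings tried, and without any single library, NOTCH3 stayed past the fold and adjusted p thresholds in both lines.

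**Figure D1:**
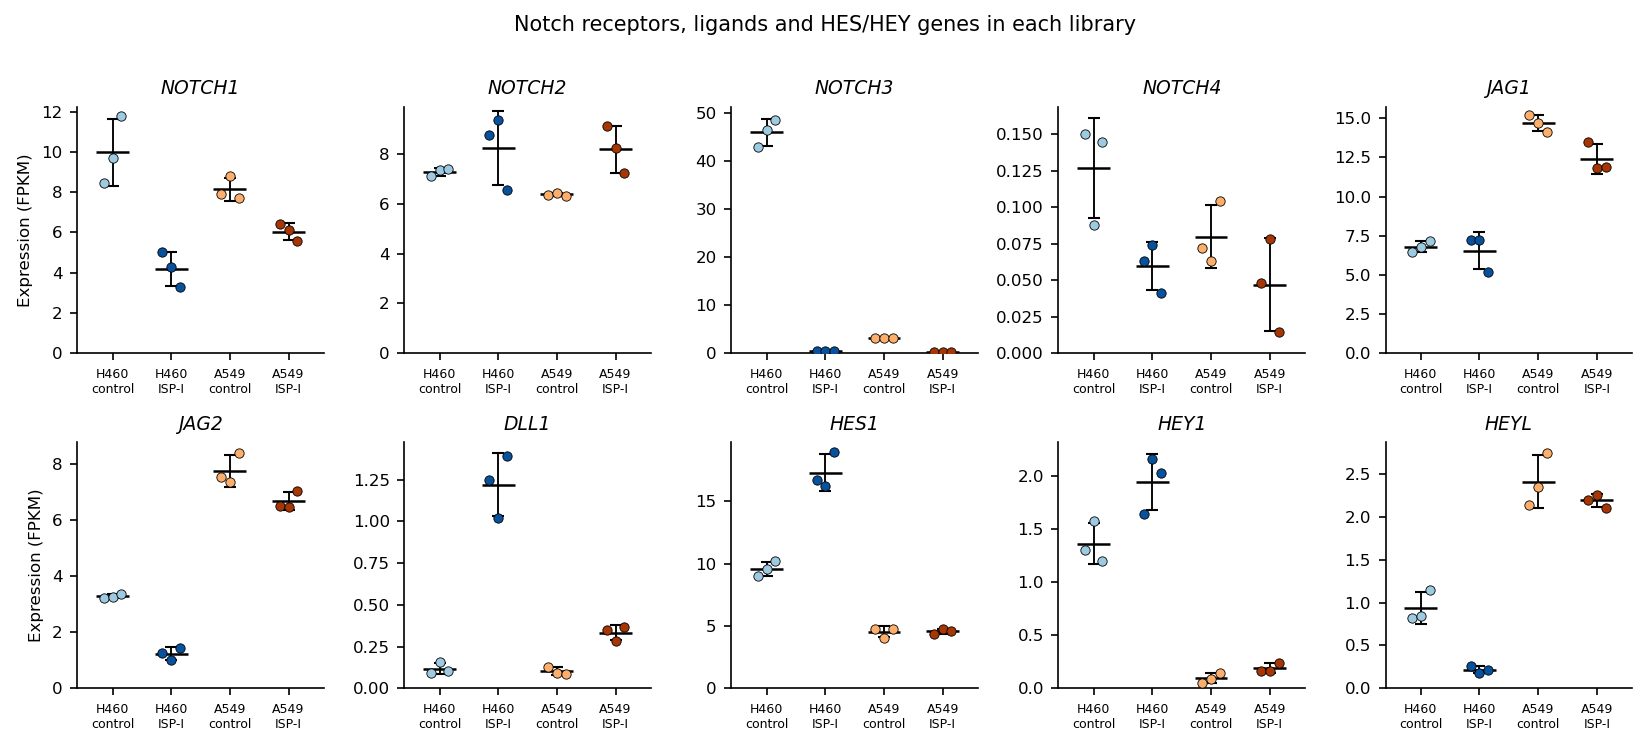
Expression of the 10 Notch genes (y axis, FPKM, a linear axis of its own for each gene) in the 4 groups (x axis). Points are libraries, the horizontal line is the mean of 3 libraries and the bar its SD. NOTCH3 lies between 42.9 and 48.5 FPKM in H460 control and at or under 0.53 FPKM in H460 ISP-I, and DLL1 and HES1 lie higher in H460 ISP-I than in H460 control.

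NOTCH1 (ENSG00000148400, chromosome 9, 136494433 to 136546048, minus strand), a broadly expressed receptor and a known cancer gene, was lower with ISP-I in both lines. H460 control libraries held 8.45, 9.7 and 11.8 FPKM against 5.0, 4.26 and 3.3 FPKM with ISP-I. The groups did not overlap, and the mean was 2.38-fold lower. A549 libraries held 7.9, 8.78 and 7.71 FPKM against 6.4, 6.1 and 5.56 FPKM, a mean 1.35-fold lower with no overlap. The H460 log2 fold change of -1.08 (SE 0.16) was close to the 2-fold threshold. It was -0.85 with median-of-ratios scaling, -0.93 with quantile normalization and -0.97 on recovered reads with median-of-ratios factors, and NOTCH1 was called under 4 of the 7 alternatives of pseudocount, filter, scaling and method. It was also not called without control library 3, at -0.97, or without ISP-I library 3, at -0.95.

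NOTCH2 (ENSG00000134250, chromosome 1, 119911553 to 120100779, minus strand), a receptor close to NOTCH1 in domain structure, was not lower with ISP-I. H460 controls held 7.12, 7.36 and 7.41 FPKM, and ISP-I libraries held 8.79, 9.39 and 6.56 FPKM. ISP-I library 3 was below every control and the other ISP-I libraries were above them, so the groups overlapped. The log2 fold change in H460 was 0.14 (SE 0.14), and 0.40 with median-of-ratios scaling. It did not reach the threshold under any of the 7 alternatives. In A549 the controls held 6.38, 6.45 and 6.33 FPKM and the ISP-I libraries 9.13, 8.25 and 7.25 FPKM, all of them above the controls and 1.29-fold higher on average. NOTCH2 shares near-identical sequence with the NOTCH2NL genes, so its reads are uncertain. The listed copies held few reads, at most 12 per library for NOTCH2NLA and 39 for NOTCH2NLC.

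NOTCH4 (ENSG00000204301, chromosome 6, 32194843 to 32224067, minus strand), a receptor known mainly from endothelium, was close to the detection limit. It had 2 to 21 reads per library, and its mean was 0.127, 0.0595, 0.0797 and 0.047 FPKM in H460 control, H460 ISP-I, A549 control and A549 ISP-I. Its mean passed the minimum of 0.1 FPKM in the comparison of the control groups but not in the others. The neighbouring gene GPSM3, on the same strand, overlaps it and was at 2.02 ± 0.25 FPKM in H460 control and 0.411 ± 0.229 FPKM in H460 ISP-I. Whether reads of GPSM3 enter the NOTCH4 count was not tested.

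The receptor make-up of the RNA differed between control and ISP-I in each line. NOTCH3 held 73.2%, 73.0% and 71.5% of the summed FPKM of the 4 receptors in H460 control libraries, and 3.32%, 3.41% and 5.08% in H460 ISP-I libraries. In A549 its share was 17.5%, 17.3% and 18.1% in controls and 1.4%, 1.21% and 1.42% with ISP-I. By FPKM, NOTCH2 ranked first of the receptors with ISP-I in both lines, at 63.4% ± 2.41 of the sum in H460 ISP-I and 56.7% ± 1.05 in A549 ISP-I (SD, n = 3 each). These shares depend on the deposited gene lengths, 19930 bases for NOTCH2 and 10639 for NOTCH1. In reads not divided by length, NOTCH2 was already above NOTCH1 in A549 control, at 5561 against 3781 in all. The sum itself was 63.3 ± 4.6 FPKM in H460 control, 13.0 ± 2.22 FPKM in H460 ISP-I, 17.7 ± 0.667 FPKM in A549 control and 14.5 ± 1.4 FPKM in A549 ISP-I. The libraries of A549 ISP-I and H460 ISP-I overlapped in this sum, whereas the H460 controls stood above all other libraries.

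**Figure D2:**
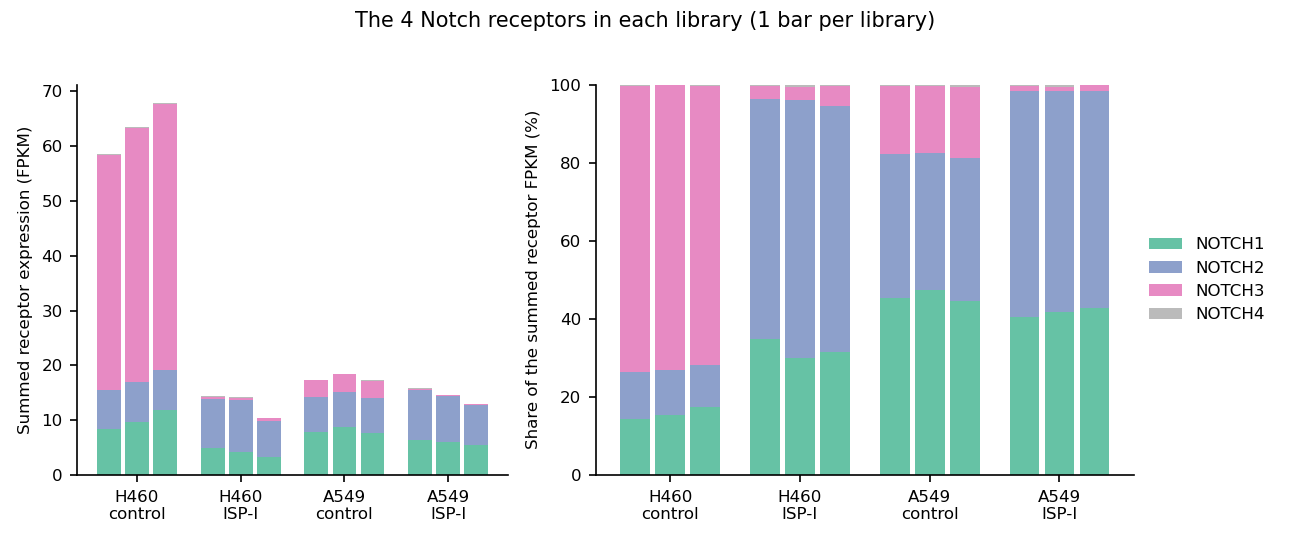
Summed FPKM of the 4 Notch receptors (left, y axis in FPKM) and the percent of that sum held by each receptor (right), with 1 stacked bar per library and 3 bars per group. NOTCH3 fills 71.5% to 73.2% of the H460 control bars and 3.32% to 5.08% of the H460 ISP-I bars.

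The ligands went different ways. JAG1 (ENSG00000101384, chromosome 20, 10637684 to 10673999, minus strand), a Jagged ligand, differed little with ISP-I. H460 controls held 6.49, 6.77 and 7.15 FPKM and ISP-I libraries 7.23, 7.2 and 5.21 FPKM. The groups overlapped, and the log2 fold change of -0.06 (SE 0.14) turned to 0.19 with median-of-ratios scaling and to 0.08 without ISP-I library 3. A549 controls held 15.2, 14.7 and 14.1 FPKM against 13.5, 11.8 and 11.9 FPKM with ISP-I, without overlap and 1.18-fold lower on average.

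JAG2 (ENSG00000184916, chromosome 14, 105140982 to 105168824, minus strand), the other Jagged ligand, was lower with ISP-I in H460. Controls held 3.22, 3.26 and 3.37 FPKM and ISP-I libraries 1.25, 0.995 and 1.44 FPKM, a mean 2.67-fold lower with no overlap. On the log2(FPKM + 1) scale the difference was -0.95 (SE 0.11), short of the 2-fold threshold, and on recovered reads with library totals it was -1.43 and past it. In A549 the libraries went from 7.52, 7.33 and 8.39 FPKM to 6.49, 6.46 and 7.03 FPKM, 1.16-fold lower on average.

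DLL1 (ENSG00000198719, chromosome 6, 170282206 to 170306565, minus strand), a Delta ligand, was higher with ISP-I in both lines. It was scarcely detected in H460 controls, with 0.091, 0.155 and 0.105 FPKM, and stood at 1.25, 1.02 and 1.39 FPKM with ISP-I. That is a mean 10.4-fold higher, from 5 to 9 reads per control library to 65 to 85 reads per treated library. A549 went from 0.129, 0.0891 and 0.0887 FPKM to 0.351, 0.284 and 0.365 FPKM, 3.26-fold higher on 17 to 20 reads per treated library. The groups of each line did not overlap. At these low levels the log2 fold change in H460 depended on the pseudocount, at 0.99 (SE 0.082) with 1 and 2.60 with 0.1, and it was 1.13 with median-of-ratios scaling, which crossed the threshold. In A549 it was 0.27 with a pseudocount of 1 and 1.10 with 0.1, past the threshold.

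The gene FAM120B lies over part of DLL1 on the opposite strand and was itself higher with ISP-I. It held 5.43 ± 0.289 FPKM in H460 control and 10.8 ± 1.96 FPKM in H460 ISP-I, and 5.34 ± 0.187 against 6.31 ± 0.291 FPKM in A549. The strand setting of the read counting is not stated, and the part of FAM120B in the DLL1 values was not tested. DLL1 made up 1.15% ± 0.326 of the summed FPKM of the 3 ligands in H460 control and 13.7% ± 3.22 in H460 ISP-I (SD, n = 3 each).

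The HES/HEY genes also split. HES1 (ENSG00000114315, chromosome 3, 194136148 to 194138732, plus strand), the repressor most used as a readout of Notch activity, was higher with ISP-I in H460. Controls held 9.05, 9.56 and 10.2 FPKM and ISP-I libraries 16.7, 16.2 and 19.0 FPKM. All treated libraries were above all controls, with a mean 1.8-fold higher. The log2 fold change was 0.78 (SE 0.11), and with median-of-ratios scaling it was 1.05 and past the 2-fold threshold. In A549, HES1 held 4.78, 4.06 and 4.8 FPKM in controls and 4.33, 4.74 and 4.61 FPKM with ISP-I. There the groups overlapped, and the log2 fold change was 0.00 (SE 0.085).

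HEY1 (ENSG00000164683, chromosome 8, 79762371 to 79767857, minus strand), a HEY repressor, was at 1.3, 1.57 and 1.2 FPKM in H460 control and at 1.64, 2.16 and 2.03 FPKM in H460 ISP-I. The treated libraries were above the controls by 1.43-fold on average, and the log2 fold change of 0.32 did not reach the threshold under any of the 7 alternatives. A549 held 4 to 19 reads of HEY1 per library, with 0.0954 ± 0.049 FPKM in controls and 0.188 ± 0.0467 FPKM with ISP-I (SD, n = 3 each). There the groups did not overlap, and the mean was 1.97-fold higher with ISP-I.

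HEYL (ENSG00000163909, chromosome 1, 39623435 to 39639643, minus strand), a HEY-like repressor, was lower with ISP-I in H460, opposite to HES1. Controls held 0.818, 0.84 and 1.15 FPKM and ISP-I libraries 0.261, 0.177 and 0.215 FPKM. The mean was 4.31-fold lower without overlap, on 12 to 19 reads per treated library. Its log2 fold change was -0.67 (SE 0.085) with a pseudocount of 1 and -1.70 with 0.1. In A549 HEYL overlapped between 2.14, 2.35 and 2.74 FPKM in controls and 2.2, 2.25 and 2.1 FPKM with ISP-I.

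**Figure D3:**
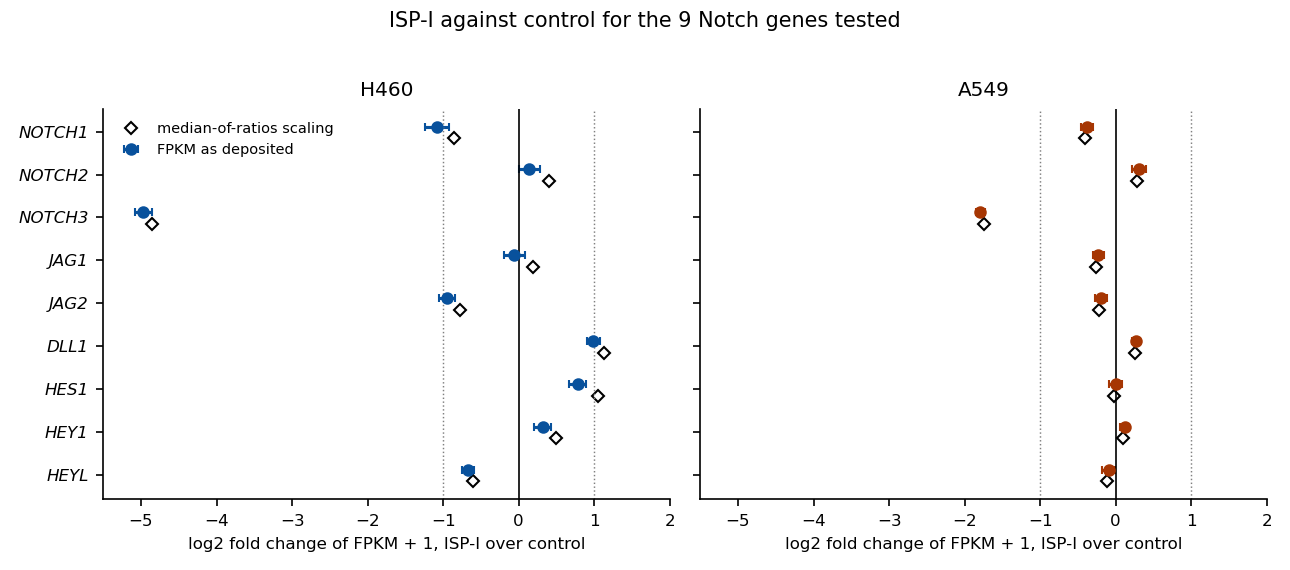
Log2 fold change of FPKM + 1, ISP-I over control (x axis), for the 9 Notch genes tested in H460 (left) and A549 (right). Filled points are the deposited FPKM with the SE as bar, open diamonds the same genes after median-of-ratios scaling, and dotted lines mark a 2-fold change. NOTCH3 lies at -4.97 in H460 and -1.79 in A549, and in H460 the diamond of JAG1 lies on the other side of 0.

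Of the 9 genes tested in H460, 2 were called, that is, changed more than 2-fold with a Benjamini-Hochberg adjusted p under 0.05 in limma, NOTCH1 and NOTCH3, both lower. This was 22.2%, and 25.7% of all 13423 genes tested in H460 were called. In A549 NOTCH3 alone was called of 9, or 11.1%, beside 7.71% of 13705 genes. NOTCH3 was also the only gene of 9 called for the difference between the lines, beside 16.0% of 13953 genes. The median log2 fold change of the 9 genes was -0.06 in H460 and -0.09 in A549. All these counts come from the comparisons that led to the choice of the genes, and nothing is read from them.

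The untreated lines already differed in these genes. NOTCH3 was 14.7-fold and HEY1 14.2-fold higher in H460 control than in A549 control. JAG1 was 2.15-fold and JAG2 2.36-fold lower in H460. These 4 of 10 genes were called between the control groups, where 14.4% of 13532 genes were called. The call of JAG1, at -1.0 on the log2 scale, and that of JAG2, at -1.03, sat at the threshold, and with median-of-ratios scaling neither was called. HES1 was 2.11-fold higher and HEYL 2.57-fold lower in H460 control, short of the call on the log2(FPKM + 1) scale. NOTCH1 and DLL1 overlapped between the control groups.

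Ordered by FPKM within a group, which rests on the deposited lengths, NOTCH3 led in H460 control at 45.9 FPKM. Below it came NOTCH1 at 9.97 and HES1 at 9.59 FPKM, which overlapped each other. NOTCH2 at 7.3 and JAG1 at 6.8 FPKM followed and also overlapped, before JAG2, HEY1 and HEYL, with NOTCH4 and DLL1 last. In H460 ISP-I, HES1 led at 17.3 FPKM, followed by NOTCH2 and JAG1, which overlapped, and NOTCH3 ranked 8 of 10. A549 had JAG1 at the top in both groups, at 14.7 FPKM in control and 12.4 FPKM with ISP-I. NOTCH1 and JAG2 overlapped next in A549 control, and NOTCH2 ranked second in A549 ISP-I. NOTCH3 went from rank 6 to rank 8 in A549.

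The genes closest in pattern to NOTCH3, JAG1 and HES1 were found by Pearson's r of log2(FPKM + 1) over the 12 libraries among 10592 genes. NOTCH3 was closest to TRMT2B (r = 0.995), GRAMD1B (r = 0.994) and TOB1 (r = 0.993). GRAMD1B, for example, had mean levels of 61.1, 4.89, 8.58 and 3.11 FPKM in H460 control, H460 ISP-I, A549 control and A549 ISP-I. JAG1 was closest to CYFIP1 (r = 0.987), TLE4 (r = 0.985) and IGF1R (r = 0.983), and HES1 to ZBTB7B (r = 0.995), SERPINE2 (r = 0.989) and ICAM5 (r = 0.989). The 12 points form 4 groups that share line and treatment, so these values describe group patterns.

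The other 73 genes of the pathway were grouped by role. In H460, 17 of the 60 tested were called (28.3%, beside 25.7% of all genes), 10 higher and 7 lower. Without the 2-fold limit, 21 rose and 22 fell at an adjusted p under 0.05 in limma, and 17 did not pass. At any fold, 69.2% of all genes tested in H460 passed that limit, 3711 higher and 5576 lower. In A549, 7 of 61 were called (11.5%, beside 7.71%), 3 higher and 4 lower, with 23 rising and 19 falling at any fold. There 57.5% of all genes passed at any fold, 4185 higher and 3702 lower. With median-of-ratios scaling 27 rose and 19 fell in H460, and 22 rose and 20 fell in A549. Without H460 ISP-I library 3, the library that stood apart in that group, 20 pathway genes were called in H460, all 17 among them. Their median log2 fold change was -0.03 in H460, where all genes had -0.15, and 0.10 in A549, where all genes had 0.02. Adjusted p-values are Benjamini-Hochberg values over all genes tested.

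Of the other ligands, DLL4 rose and DLL3 fell in H460. DLL4, a Delta ligand known from the endothelium, held 0.0585, 0.0831 and 0 FPKM in H460 control and 1.08, 1.78 and 1.28 FPKM in H460 ISP-I. The log2 fold change was 1.17 (SE 0.11, adjusted p = 2.4e-05 by limma), from 0 to 6 reads per control library to 90 to 141 reads per treated library. In A549 it rose by 0.37 (SE 0.061, adjusted p = 0.00111 by limma), under the 2-fold limit on the log2(FPKM + 1) scale. Its plain mean there went from 0.105 ± 0.049 to 0.429 ± 0.0585 FPKM, 4.07-fold higher. The summed endothelial markers were higher with ISP-I in both lines as well. Of these markers, KDR, TEK, TIE1 and VWF averaged higher with ISP-I in both lines, whereas PECAM1 and CDH5 did not in either. The part of these markers in the DLL4 values was not tested.

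DLL3, a Delta-like protein known as an inhibitory ligand and a marker of neuroendocrine lung tumours, held 2.68, 2.97 and 4.0 FPKM in H460 control and 0.492, 0.321 and 1.42 FPKM in H460 ISP-I. Its log2 fold change was -1.31 (SE 0.22, adjusted p = 0.000834 by limma). In A549 the values overlapped, at 4.39 ± 0.945 FPKM in control and 5.56 ± 0.317 FPKM with ISP-I. The lines differed by -1.61 (SE 0.29, adjusted p = 0.000524 by limma). DLK2, a non-canonical ligand, did not pass in either line with the deposited scaling, and with median-of-ratios scaling it rose in H460 (0.35, adjusted p = 0.0421 by limma). DLK1 was too low to test.

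Of the genes of receptor maturation and glycosylation, 4 of 5 tested in H460 fell and 0 rose at any fold (69.2% of all genes passed), and 4 of 6 in A549 fell and 0 rose (57.5% of all genes passed). With median-of-ratios scaling 3 of 5 fell in H460, where RFNG, a Fringe enzyme, went from -0.42 to -0.23 on the log2 scale (adjusted p = 0.159 by limma) and no longer passed. POGLUT1, which adds O-glucose to the receptor, passed in neither line. POFUT1, which adds the O-fucose that Notch needs, fell in H460 from 41.7 ± 2.69 to 14.5 ± 1.3 FPKM (log2 fold change -1.47, SE 0.12, adjusted p = 1.03e-05 by limma). In A549 it fell from 28.2 ± 1.61 to 19.7 ± 1.0 FPKM, under the 2-fold limit. LFNG, a Fringe enzyme that extends this fucose, fell in A549 from 3.79, 3.34 and 4.57 FPKM to 1.36, 1.44 and 1.08 FPKM (-1.09, SE 0.11, adjusted p = 9.2e-05 by limma). Without A549 control library 3 its value was -0.99 and not called. LFNG fell in H460 as well, from 0.591 ± 0.143 to 0.237 ± 0.0805 FPKM (-0.36, SE 0.086, adjusted p = 0.00522 by limma), short of the call. MFNG, another Fringe enzyme, fell in A549 by 0.79 on the log2 scale, its plain mean being 3.57-fold lower, and had at most 6 reads per library in H460. FURIN, the convertase that first cuts the receptor, fell by 0.67 in H460 and by 0.91 in A549.

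Of the 7 protease and gamma-secretase genes tested in H460, 4 fell and 0 rose at any fold, and of 8 in A549, 3 fell and 1 rose, shares below those of all genes (69.2% and 57.5%). NCSTN, the substrate receptor of gamma-secretase, held 38.5, 43.0 and 43.2 FPKM in H460 control and 11.5, 10.4 and 10.5 FPKM in H460 ISP-I (log2 fold change -1.85, SE 0.11, adjusted p = 2.28e-06 by limma). In A549 it went from 19.7, 18.0 and 21.6 FPKM to 10.5, 9.07 and 8.57 FPKM (-1.0, SE 0.096, adjusted p = 6.17e-05 by limma), a call at the threshold. It was lost in A549 without control library 3, ISP-I library 2 or ISP-I library 3, with values between -0.98 and -0.94. APH1A, another gamma-secretase subunit, fell by 0.90 in H460 and by 0.47 in A549, and APH1B fell by 0.60 in H460 and rose by 0.24 in A549. ADAM10, the main protease of the ligand-induced cut, fell by 0.71 in H460 and by 0.89 in A549. ADAM17, a related protease, passed in neither line with the deposited scaling, and with median-of-ratios scaling it rose in H460 (0.58, adjusted p = 0.00631 by limma). PSENEN passed in neither line with either scaling.

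In the nuclear activation complex, 3 of 9 genes rose and 3 fell in H460, and 2 rose and 3 fell in A549, beside 69.2% and 57.5% of all genes that passed at any fold. With median-of-ratios scaling 5 rose and 1 fell in H460. SNW1, a coactivator and splicing factor, rose in H460 from 22.7 ± 1.18 to 80.3 ± 12.3 FPKM (log2 fold change 1.77, SE 0.14, adjusted p = 9.47e-06 by limma) and in A549 from 23.6 ± 3.62 to 56.7 ± 3.04 FPKM (1.24, SE 0.11, adjusted p = 4.26e-05 by limma). KAT2A, a histone acetyltransferase, fell in H460 from 27.3, 28.9 and 31.6 FPKM to 7.38, 5.3 and 7.34 FPKM (-1.99, SE 0.14, adjusted p = 5.83e-06 by limma). In A549 it fell by 0.40, and the lines differed by -1.59 (SE 0.16, adjusted p = 4.94e-06 by limma). MAML3, a Mastermind coactivator, fell by 0.51 in H460, with -0.29 and no pass under median-of-ratios scaling (adjusted p = 0.0746 by limma), and by just under 1 on the log2 scale in A549, short of the call. EP300, an acetyltransferase, rose by 0.91 in H460, and by 1.17 with median-of-ratios scaling (adjusted p = 0.000492 by limma), where it was called. MAML1, another Mastermind coactivator, fell by 0.38 in H460 and did not pass with that scaling (adjusted p = 0.418 by limma). KAT2B did not pass in H460 and fell by 0.35 in A549.

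Among the corepressors of RBPJ and of the HES proteins, CTBP1 fell and CIR1 rose in H460. In each line 3 of these 10 genes rose and 5 fell at any fold, beside 69.2% of all genes that passed in H460 and 57.5% in A549, and with median-of-ratios scaling 4 rose and 5 fell in H460. CTBP1 went from 10.3 ± 1.4 to 2.99 ± 0.165 FPKM (log2 fold change -1.5, SE 0.12, adjusted p = 1.28e-05 by limma) and fell by 0.43 in A549. CTBP2 fell by 0.63 in H460, under the 2-fold limit, and did not pass in A549. CIR1, which binds RBPJ, held 2.73, 2.09 and 3.04 FPKM in H460 control and 10.6, 17.2 and 7.44 FPKM in H460 ISP-I (1.75, SE 0.26, adjusted p = 0.000352 by limma). TLE1 to TLE4 encode Groucho proteins, which HES proteins recruit. TLE1 rose in both lines, by 0.44 in H460 and 0.50 in A549, while TLE2 and TLE3 fell in both lines. All were under the 2-fold limit on the log2(FPKM + 1) scale. TLE2 was low, and its plain mean FPKM was 2.84-fold lower in H460 and 2.94-fold lower in A549.

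Of 14 genes of trafficking and turnover, 3 were called in H460 (21.4%, under the 25.7% of all genes) and 1 in A549 (7.14%, beside 7.71%). At any fold 6 rose and 4 fell in H460 and 8 rose and 3 fell in A549, beside 69.2% and 57.5% of all genes. NUMB, an inhibitor that sends Notch to endocytosis, rose from 5.05, 5.15 and 5.28 FPKM to 14.0, 15.9 and 10.6 FPKM (log2 fold change 1.22, SE 0.15, adjusted p = 0.000123 by limma). ITCH, a ubiquitin ligase that acts on Notch, rose from 5.77 ± 0.84 to 17.0 ± 4.23 FPKM (1.39, SE 0.19, adjusted p = 0.000233 by limma). In A549, NUMB overlapped between groups at 6.25 ± 0.305 and 6.92 ± 0.568 FPKM, and ITCH rose by 0.54. The NUMB paralog NUMBL fell by 0.85 in A549. DTX4 passed in opposite directions, falling by 0.56 in H460 and rising by 0.33 in A549, and was called in neither line. Its plain mean was 3.49-fold lower in H460 and 1.37-fold higher in A549. NEURL1 rose by 0.47 in A549, from 0.129 ± 0.0136 to 0.574 ± 0.148 FPKM, and did not pass in H460.

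NEURL1B, a ubiquitin ligase that acts on Notch ligands, fell in both lines. It held 0.973, 1.07 and 1.15 FPKM in H460 control and 0.0174, 0.00934 and 0.021 FPKM, or 1 to 2 reads per library, in H460 ISP-I. Its log2 fold change of -1.02 (SE 0.065, adjusted p = 3.24e-06 by limma) sat at the threshold. The call was lost with quantile normalization, at -0.93, with median-of-ratios scaling and without H460 control library 3, at -0.99. In A549 it fell from 3.18 ± 0.241 to 0.635 ± 0.0448 FPKM (-1.35, SE 0.076, adjusted p = 4.41e-06 by limma).

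Of the other 10 HES and HEY family genes, 6 were tested in each line. In each line 5 of these rose and 0 fell at any fold, also with median-of-ratios scaling. Of all genes, 69.2% passed at any fold in H460 and 57.5% in A549. Those that passed as higher were 3711 of 13423 in H460 and 4185 of 13705 in A549. In H460 3 were called, HES4, BHLHE40 and BHLHE41, beside 25.7% of all genes. In A549 2 were called, HES4 and HES7, beside 7.71% of all genes. BHLHE40 and BHLHE41, which are not core Notch targets, were also among the genes that rose in each line. HES4, a HES repressor, rose in both lines. It held 7.46, 7.3 and 8.16 FPKM in H460 control and 40.1, 25.4 and 64.6 FPKM in H460 ISP-I (log2 fold change 2.26, SE 0.28, adjusted p = 0.000135 by limma), all treated libraries being above all controls but spread widely. In A549 it went from 6.93 ± 1.45 to 25.4 ± 1.47 FPKM (1.75, SE 0.12, adjusted p = 1.25e-05 by limma). The difference of 0.51 between the lines did not pass (adjusted p = 0.231 by limma).

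HES7, a repressor known from the segmentation clock, rose in A549 from 1.87, 0.941 and 0.865 FPKM to 5.09, 6.24 and 5.34 FPKM (1.58, SE 0.17, adjusted p = 9.45e-05 by limma). In H460 it overlapped between groups, with 3.22, 4.03 and 4.11 FPKM in control and 3.9, 3.35 and 6.85 FPKM with ISP-I. The lines differed by -1.37 (SE 0.3, adjusted p = 0.00204 by limma). HEY2 rose in H460 by 0.45, from 0.141 ± 0.0866 to 0.561 ± 0.128 FPKM, and HES2 rose in A549 by 0.45. HES2 was not tested in H460, at 0.101 ± 0.0716 FPKM in control and 0.033 ± 0.0163 FPKM with ISP-I. HES3, HES5 and HELT were too low to test in either line.

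BHLHE40 and BHLHE41 are related repressors of the wider family, known from the circadian clock and the hypoxia response rather than as core Notch targets. BHLHE40 rose in H460 from 15.7, 16.2 and 20.8 FPKM to 118.8, 130.2 and 121.4 FPKM (log2 fold change 2.75, SE 0.14, adjusted p = 1.09e-06 by limma). In A549 it rose by 0.84 (SE 0.063, adjusted p = 1.71e-05 by limma), from 38.3 ± 1.11 to 69.1 ± 2.45 FPKM. BHLHE41 rose in H460 from 3.09 ± 0.539 to 17.8 ± 3.01 FPKM (2.20, SE 0.15, adjusted p = 5e-06 by limma) and in A549 from 0.214 ± 0.141 to 0.68 ± 0.0484 FPKM, by 0.48.

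**Figure D4:**
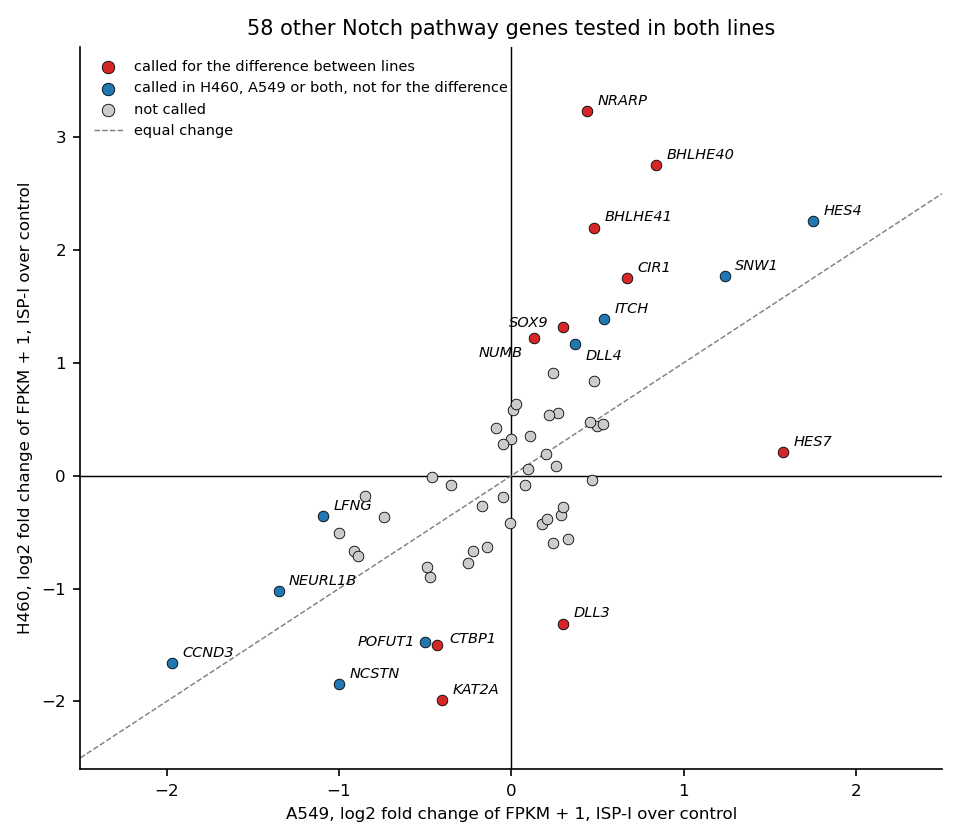
Log2 fold change of FPKM + 1 with ISP-I in A549 (x axis) and H460 (y axis) for the 58 other pathway genes tested in both lines. Red points were called for the difference between the lines, blue points in H460, A549 or both but not for the difference, and the dashed line marks an equal change. NRARP lies highest, at 3.23 in H460 and 0.44 in A549, and HES7 and DLL3 lie to the right of the dashed line.

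Among further Notch targets, NRARP had the largest rise of the 60 pathway genes tested in H460. NRARP, a direct Notch target whose protein limits the activity of the Notch intracellular domain, held 2.61, 3.09 and 3.13 FPKM in H460 control and 37.5, 32.0 and 38.9 FPKM in H460 ISP-I. All treated libraries were above all controls, 12.3-fold higher on average (log2 fold change 3.23, SE 0.12, adjusted p = 3.55e-07 by limma). In A549 it held 1.86, 1.49 and 2.31 FPKM in control and 2.74, 2.75 and 3.22 FPKM with ISP-I, a rise of 0.44 (SE 0.12, adjusted p = 0.0114 by limma). The lines differed by 2.79 (SE 0.17, adjusted p = 1.06e-07 by limma).

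SOX9, a transcription factor of lung progenitors, rose in H460 from 13.8 ± 0.332 to 36.2 ± 3.1 FPKM (log2 fold change 1.32, SE 0.11, adjusted p = 1.34e-05 by limma) and by 0.30 in A549. CCND3, a D-type cyclin, fell in both lines, from 37.6 ± 4.26 to 11.2 ± 1.84 FPKM in H460 (-1.66, SE 0.15, adjusted p = 1.93e-05 by limma) and from 36.4 ± 5.09 to 8.48 ± 0.467 FPKM in A549 (-1.97, SE 0.1, adjusted p = 2.96e-06 by limma). CCND1, another D-type cyclin, did not pass in H460 with the deposited scaling, rose there with median-of-ratios scaling (0.36, adjusted p = 0.0197 by limma) and rose by 0.26 in A549. IGF1R, a growth factor receptor, passed in neither line, and with median-of-ratios scaling it fell in A549 (-0.20, adjusted p = 0.0317 by limma).

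**Figure D5:**
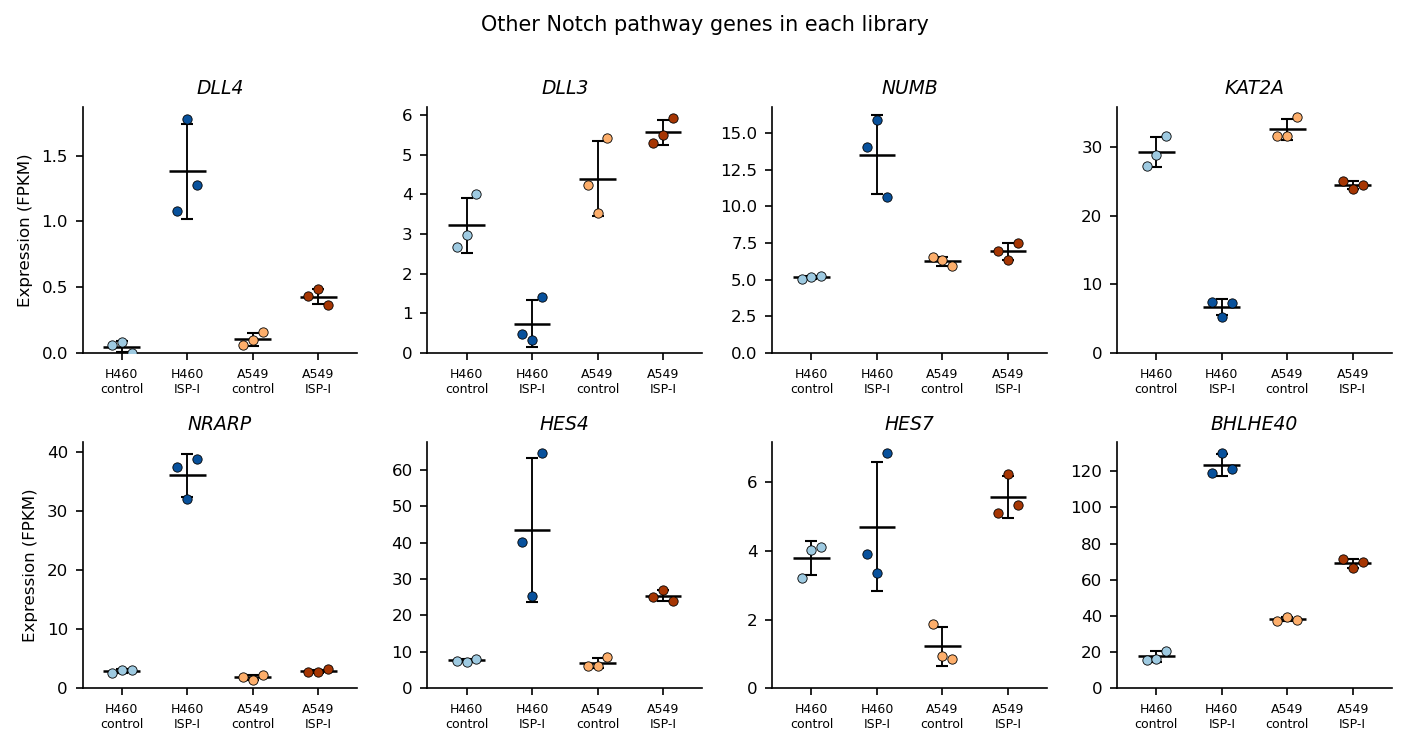
Expression of 8 other pathway genes (y axis, FPKM, a linear axis of its own for each gene) in the 4 groups (x axis), with points for libraries, a line for the mean of 3 libraries and a bar for its SD. NRARP lies between 32.0 and 38.9 FPKM in H460 ISP-I and at or under 3.22 FPKM in the other groups, and HES4 spreads from 25.4 to 64.6 FPKM in H460 ISP-I.

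Between the untreated lines, 15 of 60 pathway genes were called (25.0%, beside 14.4% of all genes), 4 higher and 11 lower in H460. At any fold 37 of them passed, beside 60.2% of all genes, and for the difference of the ISP-I effect between lines 35 of 62 passed, beside 53.3%. The Fringe enzymes LFNG and MFNG were lower in H460, at 0.591 ± 0.143 against 3.9 ± 0.621 FPKM and at 0.0377 ± 0.0348 against 1.4 ± 0.294 FPKM (log2 -1.62, adjusted p = 5.74e-06, and -1.20, adjusted p = 8.49e-06, by limma). The corepressor TLE1 was 8.29-fold lower, at 3.39 ± 0.101 against 28.1 ± 1.22 FPKM (-2.73, SE 0.081, adjusted p = 2.55e-08 by limma). ADAM10 was 3.42-fold lower, at 4.01 ± 0.872 against 13.7 ± 3.65 FPKM (-1.53, SE 0.2, adjusted p = 0.000245 by limma). NCSTN was 2.1-fold higher in H460 (1.04, SE 0.096, adjusted p = 2.57e-05 by limma), a call lost with quantile normalization and without A549 control library 2.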

How the data were processed

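For the study, 12 RNA libraries were prepared with a TruSeq kit and sequenced as paired-end reads on an Illumina Novaseq system. Per the submitters' processing notes and the study's methods, reads were filtered with FastQC, mapped to hg38 with HISAT2 and counted on genes with HTSeq 0.9.1. The authors deposited FPKM, with no further scaling between libraries stated. The deposited gene length column holds bases and was used as such. The annotation version and strand setting are not given in the sources used here. Gene identifiers, positions and strands are those of the deposited table, and its functional annotation columns were not used. Table columns name only line and treatment, and libraries were assigned to groups on that basis, with numbers in column order. All per-sample columns were used. Of the table's lines, 4 held no gene and were left out, and 1924 genes had no reads in any library. Whole reads could be recovered, since 100.0% of the values in each library, multiplied by length, came to whole reads within 0.01 reads. No 2 libraries of a group agreed within sampling noise (3.03 to 98.7 chi-square per degree of freedom). In A549 control this value was 3.38 between libraries 1 and 2, and library 3 was at 28.0 from library 1 and 32.5 from library 2.

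Genes averaging 0.1 FPKM or more in a fit were compared on log2(FPKM + 1) with limma 3.58.1 (R 4.3.3, mean-variance trend), adjusted by Benjamini-Hochberg over all genes tested. Called genes changed more than 2-fold with an adjusted p under 0.05. The difference between lines was the interaction term over 12 libraries. The comparisons within a line, between controls and between lines share control libraries. The fits were tested on simulated data. The 10 genes, the pathway and marker lists, written by hand from general knowledge, and the tests were chosen with earlier results of these data known. Pathway genes were named by rule, up to 6 per list with the smallest adjusted p in a line, and any called for the difference between lines, and a few called between controls only are absent from the text. The result of a further pathway list is not reported here. For NOTCH3, JAG1 and HES1 the 3 most alike genes averaging 1 FPKM or more were named. Alternatives were another pseudocount, filters, median-of-ratios and quantile scaling, limma voom on recovered reads, other thresholds, and leaving out each library. Python 3.11.15 with pandas 2.3.3, numpy 2.4.6 and matplotlib 3.10.9 was used for tables and figures.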

Additional observations from a re-analysis of the deposited data

Results flagged for a closer look

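The response to ISP-I differed between H460 and A549, by the interaction term of limma with a Benjamini-Hochberg adjusted p under 0.05 and a difference over 1 on the log2 scale, for 10 of the 62 other pathway genes tested. This is 16.1%, beside 16.0% of all genes. The log2 fold change was higher in H460 than in A549 for NRARP by 2.79, BHLHE40 by 1.92, BHLHE41 by 1.72, NUMB by 1.09, CIR1 by 1.08 and SOX9 by 1.02. It was lower in H460 for DLL3 (-1.61), KAT2A (-1.59), HES7 (-1.37) and CTBP1 (-1.07). For SOX9, CIR1, NUMB and CTBP1 the call was lost without some single libraries. These were A549 control library 3, A549 ISP-I library 2 and H460 ISP-I library 1 for SOX9, where the difference was 0.95 to 1.0. They were A549 control library 2, H460 control library 2 and H460 ISP-I library 2 for CIR1, down to 0.79, H460 ISP-I library 2 for NUMB, at 0.97, and H460 control library 3 for CTBP1, at -0.98. CTBP1 also lost the call with median-of-ratios scaling, at -0.82, with quantile normalization, and with voom on recovered reads and median-of-ratios factors. BHLHE41 lost it on recovered reads, where the lowest difference was 0.64.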

How the results depend on the processing

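No paired analysis was possible because the table's columns carry no replicate number that ties a control library to an ISP-I library. The number of called pathway genes changed with the setting, and the cause was not tested. In H460 the 17 calls became 30 with voom on recovered reads and median-of-ratios factors, 27 with voom and library totals, 43 by adjusted p alone and 10 when limma tested against a 2-fold change. In A549 the 7 became 14 with a pseudocount of 0.1, 16 and 14 with voom on median-of-ratios factors and library totals, 42 by adjusted p alone and 3 against a 2-fold change. For the difference between lines the 10 became 19, 20, 17, 35 and 4 under the same settings. Between the control groups the 15 became 37 by adjusted p alone and 7 against a 2-fold change. Leaving out each library gave 16 to 20 in H460, 6 to 7 in A549, 8 to 11 for the difference and 14 to 16 between controls. All 17 H460 calls were among the 30 and the 27. With median-of-ratios scaling 16 of the 17 were still called in H460. Among the 10 Notch genes, DLL1 in both lines and JAG2, HEYL and HES1 in H460 passed the 2-fold threshold under some settings and NOTCH1 fell short of it under others, and NOTCH3 was called under all of them in both lines. HEY1 in A549 was past 2-fold with voom and library totals, at 1.01, but was not called. Genes under about 1 FPKM (NOTCH4, DLL1, HEY1 in A549 and HEYL in H460) rest on few reads, which limits their precision.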
